A study of Homo sapiens with 16 samples.

Results

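The 10 transcripts of triglyceride metabolism described here were chosen by name, with earlier results of these data known. They were GPAM, AGPAT2, AGPAT3, LPIN1, LPIN2, DGAT1 and DGAT2, whose products build triglyceride, and CES1, MGLL and LIPA, whose products break it down. Of these 10 genes, 9 were analysed here, out of 16558 genes in the table, and all 9 passed the filter on low values, AGPAT2 narrowly. MGLL was not analysed here. The genes were followed in 8 clones of HepG2, a human liver cancer line, each with 1 of 3 genotypes at the I148M codon of PNPLA3. Prime editing was used at that codon. GG clones (clones 1, 2 and 6) carried the G allele, which encodes I148M, on both copies, GC clones (2, 3 and 4) were heterozygous, and CC clones (1 and 3) carried the C allele on both. Every clone gave 1 control library and 1 library after 250 µM palmitic acid, for which the protocol states 48 h and the labels of single libraries 48 to 55 h. What the control cells received in place of palmitic acid is not given in the sources used here, nor which genotype the line had before editing. Each line is a single clone, so a genotype is represented by 2 or 3 clones. Genotype, editing and other differences between clones cannot be told apart.

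Liver cells make triglyceride on a glycerol backbone in the endoplasmic reticulum and at the mitochondrial surface. Acyl groups are added in turn to glycerol-3-phosphate by GPAT enzymes and to lysophosphatidic acid by AGPAT enzymes, lipins remove the phosphate, and DGAT enzymes add the last acyl group. The stored fat is released again by neutral lipases at the droplet, by carboxylesterases in the endoplasmic reticulum and by acid lipase in the lysosome. PNPLA3 is a lipid droplet protein of hepatocytes, and its I148M form is known for its association with fatty liver. Palmitic acid is a saturated fatty acid, both a substrate of this pathway and a stress to liver cells.

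Promoter entries from RefSeq (GRCh38.p14) were found for 6 of the 9 genes. The 250 bases before a start are shown for GPAM, because this acyltransferase changed in every clone, and for AGPAT2, because it stood lowest of the 9 genes. Capitals mark the GC box, GGGCGG or its reverse complement CCGCCC.
GPAM (chr10:112183766-112184015, minus strand): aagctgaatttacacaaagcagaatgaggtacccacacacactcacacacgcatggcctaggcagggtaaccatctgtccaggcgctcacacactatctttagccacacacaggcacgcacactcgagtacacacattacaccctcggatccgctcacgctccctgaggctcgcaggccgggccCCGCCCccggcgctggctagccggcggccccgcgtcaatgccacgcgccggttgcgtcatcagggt
AGPAT2 (chr9:136687458-136687707, minus strand): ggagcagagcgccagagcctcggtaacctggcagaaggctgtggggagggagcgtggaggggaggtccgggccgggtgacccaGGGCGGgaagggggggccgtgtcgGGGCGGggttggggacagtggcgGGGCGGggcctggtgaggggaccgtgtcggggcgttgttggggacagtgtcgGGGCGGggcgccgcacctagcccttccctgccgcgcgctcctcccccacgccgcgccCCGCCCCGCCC
The GPAM window held 1 GC box, a GC content of 62% and 20 CG pairs. It lies within the span GENCODE gives to GPAM, outside its exons. The AGPAT2 window held 6 GC boxes, the last pair overlapping by 1 base, with a GC content of 77.6% and 26 CG pairs. Over all 35116 promoter windows of the same length, 42.6% held a GC box on either strand, and the medians were a GC content of 58% and 11 CG pairs. Neither window held CCAAT (32.0% of windows), the E-box CACGTG (6.34%) or the sterol element TCACNCCAC (0.883%), each sought on both strands.

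The libraries held 9314342 to 15777669 reads. Levels are given as units, which are counts relative to library size (CPM) after TMM scaling between libraries. CC clone 3 stood apart. Over all tested genes the SD of its log2 changes was 0.567, while that of any other clone lay between 0.311 and 0.404, and its palmitic acid library held the fewest reads. For the 9 genes and the other genes of the pathway, results that rest on it are given with and without it. All 8 hepatocyte markers fixed for the check of cell type were measured, including ALB at 17.7 to 820.4 units and AFP at 2595 to 18692, while TTR was low in most libraries (median 7.35 units). The summed hepatocyte markers were lower with palmitic acid in 8 of 8 clones (19691 to 49483 units in control, 15078 to 38302 with palmitic acid), and 5 of the 8 fell by limma's test. APOB and AFP were the most abundant of the 8, with medians of 14952 and 11377 units. APOB was at -0.19 on the log2 scale (adjusted p = 0.243), while AFP fell (-0.54, adjusted p = 0.0112). Of the adipocyte markers, ADIPOQ stood at 0 to 0.263 units and PLIN1 at 0 to 0.724, while CIDEC, a droplet protein that liver cells also make, rose by 0.44 on the log2 scale (adjusted p = 0.0290). PLIN4, at 5.70 to 17.4 units, had a log2 change of -0.02 (adjusted p = 0.921). The summed stellate and fibroblast markers, of which 4 of 7 were measured, ran from 39.1 to 118 units in control and from 33.9 to 94.3 with palmitic acid, lower in 7 of 8 clones. Within that list ACTA2, the most abundant, fell (-0.56, adjusted p = 0.00801) and PDGFRB rose (1.12, adjusted p = 0.0251). The 4 of 6 endothelial markers measured summed to 10.6 to 31.3 and 9.44 to 33.7 units, lower in 7 of 8 clones. The leukocyte markers (4 of 6 measured) summed to 392 to 914 and 399 to 1060 units, higher in 5 of 8 clones. Nearly all of that sum was LYZ, at 371 to 1054 units, with a log2 change of 0.16 (adjusted p = 0.192). CD68, at 5.38 to 19.9 units, was at -0.08 (adjusted p = 0.521), and CD14, at 0.446 to 4.53 units, fell (-1.03, adjusted p = 0.00570). Of the endothelial markers PECAM1 fell (-0.59, adjusted p = 0.00621) and LYVE1 was at 0.64 (adjusted p = 0.0764). The biliary markers (3 of 5) summed to 288 to 419 and 286 to 395 units, lower in 4 of 8 clones. Apart from that of HNF4A, taken up below, the marker calls are not given without CC clone 3 or without pairing by clone. The part of these marker shifts in the changes below was not tested.

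Per kb of exon (GENCODE v29), GPAM was the most abundant of the 9 transcripts in control cells, with a lowest, median and highest level of 49.8, 69.9 and 109 units per kb over the 8 clones. LIPA followed at 23.8, 36.1 and 46.5 units per kb, and no LIPA value reached the range of GPAM. Exon length was the union of all annotated exons of a gene, and the order of the genes depends on that choice. DGAT1 stood at 17.5, 24.9 and 43.3 and LPIN2 at 14.4, 17.3 and 26.3 units per kb, so that LIPA, DGAT1 and LPIN2 overlapped with their neighbours in the order. AGPAT3 lay below LPIN2 without overlap, at 9.20, 10.8 and 12.6 units per kb. CES1 (0.620, 10.2 and 35.0), DGAT2 (4.41, 7.80 and 12.4) and LPIN1 (4.38, 6.91 and 8.76) overlapped with AGPAT3 or with each other. AGPAT2 was at 0.0441, 0.337 and 0.939 units per kb, below every other gene of the set in every control library.

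Palmitic acid lowered 3 of the 9 transcripts across genotypes and raised none: DGAT1, CES1 and GPAM fell, each in 8 of 8 clones. They belong to different steps, the acyltransferase that opens the pathway, the acyltransferase that closes it and a hydrolase. Among all 13095 genes tested 18.9% passed the same test, 9.52% downward and 9.33% upward, while 6.79% were lower and 6.77% higher in 8 of 8 clones. The median log2 change of the 9 genes was -0.08, against -0.01 over all tested genes, and the median size of change was 0.158 against 0.121. The 9 genes were chosen with earlier results known, so these shares describe the set and do not test it. The test was limma with each clone as its own control, averaged equally over the 3 genotypes. Without the clone block none of the 3 calls held, as given with each gene. As RNA came from whole cultures, fewer cells of a state and less RNA per cell cannot be told apart.

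**Figure D1:**
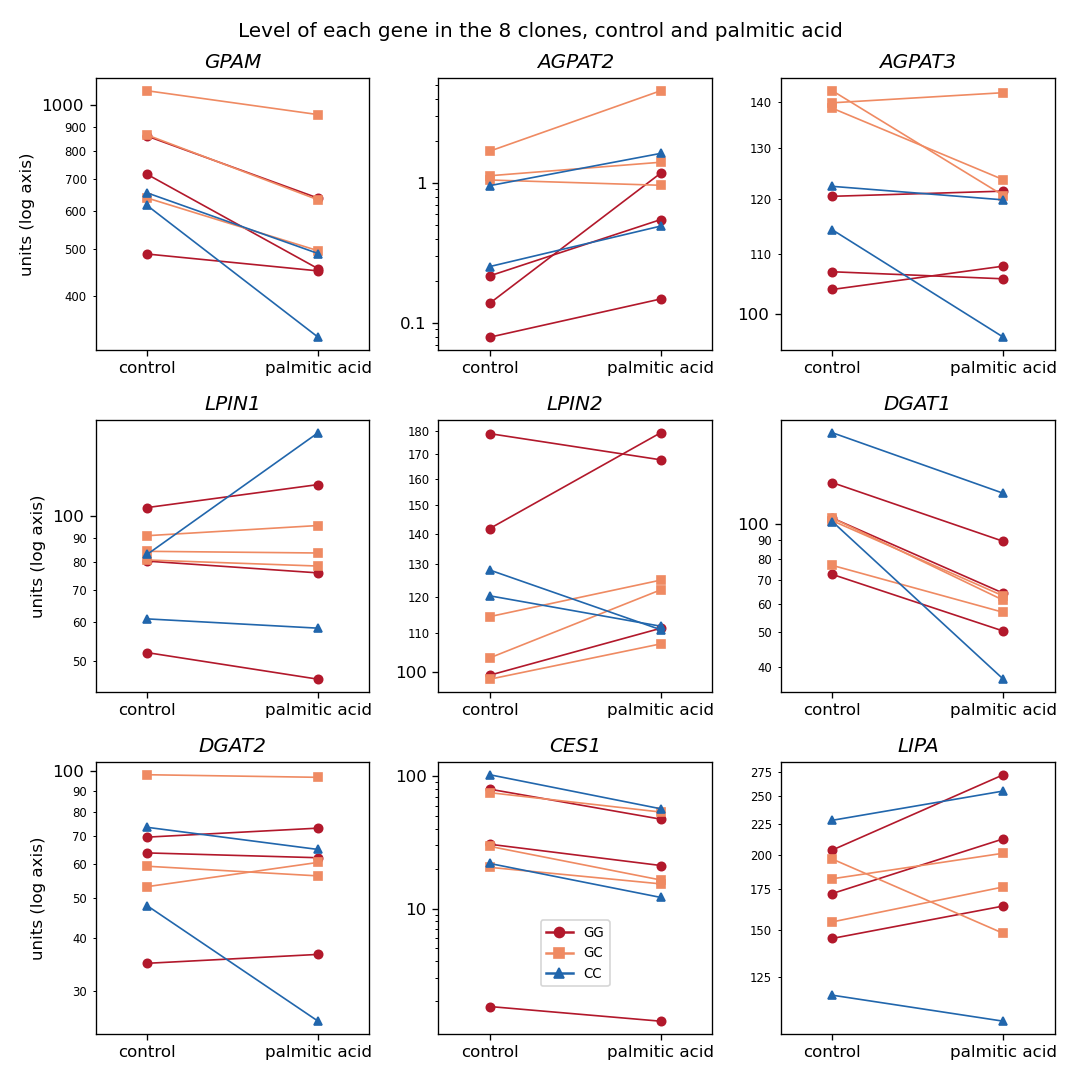
Level of each gene in units (log axis) in the control and the palmitic acid library of each clone, joined by a line (GG circles, GC squares, CC triangles). The lines of GPAM, DGAT1 and CES1 slope down in all 8 clones, while those of the other genes do not all slope the same way.

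GPAM (ENSG00000119927.13, GRCh38 chromosome 10, 112149864 to 112215377, minus strand, protein-coding) encodes the mitochondrial enzyme that adds the first acyl group to glycerol-3-phosphate. In control it stood at 859.8, 488 and 716 units in GG clones 1, 2 and 6, at 639, 865 and 1069 in GC clones 2, 3 and 4, and at 655 and 616 in CC clones 1 and 3. With palmitic acid it stood at 638, 450.3 and 455 units in the GG clones, 496, 633 and 953 in the GC clones and 489 and 328 in the CC clones, in the same order. The control and treated ranges overlapped, but every clone fell, with a change of -7.78% in GG clone 2 at the small end and -46.9% in CC clone 3 at the large end. The mean log2 change was -0.46 ± 0.07 (SE, n = 8 clones, 95% interval -0.63 to -0.30, adjusted p = 0.00234), a ratio of 0.725. Without the block the adjusted p was 0.503, and over the 16 alternatives it ran from 1.54e-07 to 0.503. Without CC clone 3 the change was -0.38 (adjusted p = 0.00880).

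The AGPAT pair adds the acyl group that turns lysophosphatidic acid into phosphatidic acid. AGPAT3 (ENSG00000160216.18, chromosome 21, 43865186 to 43986536, plus strand) was measured at 104 to 142 units in control and 96.3 to 142 with palmitic acid, with a log2 change of -0.08 ± 0.05 (95% interval -0.19 to 0.03, adjusted p = 0.263), lower in 5 of 8 clones. AGPAT2 (ENSG00000169692.12, chromosome 9, 136673143 to 136687423, minus strand) is the form whose loss in people causes lipodystrophy. It was barely detected here. Its control libraries held 2, 1 and 3 reads in the GG clones, 20, 16 and 14 in the GC clones and 4 and 12 in the CC clones. Its palmitic acid libraries held 15, 2 and 6 reads in GG, 67, 12 and 15 in GC and 7 and 15 in CC. The level was higher with palmitic acid in 7 of 8 clones, GC clone 3 being the exception, with a log2 change of 0.54 ± 0.19 on the scale of log2(units + 0.5) (95% interval 0.11 to 0.97, adjusted p = 0.0737). AGPAT2 passed the threshold when edgeR was run on recovered reads (1.17, adjusted p = 0.0214) and when clones counted equally (0.55, adjusted p = 0.0446). Its adjusted p ran from 0.0214 to 0.699 over the alternatives. The mean of AGPAT2 was 0.689 units over the control and 1.37 over the palmitic acid libraries, against a filter of 1 unit. Its rise is therefore tied to the filter and counts as no support.

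Lipins are the phosphatidic acid phosphatases that yield diacylglycerol, and lipin 1 also acts on transcription in the nucleus. LPIN1 (ENSG00000134324.11, chromosome 2, 11677595 to 11827409, plus strand) stood in control at 80.5, 52.0 and 104 units in GG clones 1, 2 and 6, at 84.3, 80.9 and 90.9 in the GC clones and at 61.0 and 83.1 in the CC clones. With palmitic acid it stood at 76.1, 45.8 and 116 units in GG, 83.6, 78.6 and 95.4 in GC and 58.4 and 149 in CC. In 7 clones the log2 change lay between -0.18 and 0.16, and in CC clone 3 it was 0.84. The mean of 0.12 ± 0.09 (95% interval -0.07 to 0.31, adjusted p = 0.351) therefore turned to -0.03 (adjusted p = 0.807) without CC clone 3. Without CC clone 1, which leaves CC clone 3 alone in its genotype, it was 0.27 (adjusted p = 0.00659), and the adjusted p over all alternatives ran from 0.00659 to 0.922. LPIN2 (ENSG00000101577.9, chromosome 18, 2916994 to 3013315, minus strand) ran from 98.2 to 179 units in control and from 107 to 179 with palmitic acid. Its log2 change was 0.05 ± 0.05 (95% interval -0.07 to 0.17, adjusted p = 0.575). LPIN2 was higher in 3 of 3 GC clones (0.12 to 0.24) and 2 of 3 GG clones, and lower in both CC clones (-0.11 and -0.21).

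DGAT1 and DGAT2 add the final acyl group. They are unrelated in sequence: DGAT1 is an endoplasmic reticulum enzyme known to esterify fatty acids taken up from outside, and DGAT2 also sits at lipid droplets and is known for using newly made fatty acids. DGAT1 (ENSG00000185000.11, chromosome 8, 144314584 to 144326910, minus strand) stood in control at 130.0, 72.4 and 104 units in GG clones 1, 2 and 6, at 102, 104 and 76.7 in GC clones 2, 3 and 4 and at 179 and 101 in CC clones 1 and 3. With palmitic acid it stood at 89.4, 50.4 and 64.2 units in GG, 63.1, 61.4 and 56.8 in GC and 121 and 37.1 in CC. The change in level ran from -25.9% to -40.8% in 7 clones and was -63.4% in CC clone 3. In GC the ranges of control and treated levels did not overlap, and in GG and CC they did. The mean log2 change was -0.73 ± 0.08 (SE, n = 8 clones, 95% interval -0.92 to -0.55, adjusted p = 4.35e-04), a ratio of 0.601, the lowest of the 9 genes. The adjusted p was 0.408 without the block, the highest of 16 alternatives that began at 6.36e-13. Without CC clone 3 the change was -0.59 (adjusted p = 2.00e-04). DGAT1 overlaps HSF1 on the opposite strand, and how strand was used in counting is not given in the sources used here. HSF1, the heat shock factor gene, stood at 64.9 to 104 units and had a log2 change of 0.11 ± 0.05 (adjusted p = 0.140), opposite in sign to DGAT1.

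DGAT2 (ENSG00000062282.14, chromosome 11, 75759512 to 75801535, plus strand) stood in control at 63.9, 69.7 and 34.9 units in GG clones 1, 2 and 6, at 59.4, 53.1 and 98.2 in the GC clones and at 73.6 and 47.9 in the CC clones. With palmitic acid it stood at 62.3, 73.2 and 36.6 units in GG, 56.4, 60.7 and 96.8 in GC and 65.1 and 25.4 in CC. The change in level lay between -11.5% and 14.2% in 7 clones, 3 of them higher, and was -47.0% in CC clone 3. The mean log2 change was -0.16 ± 0.07 (95% interval -0.32 to 0.01, adjusted p = 0.163). Without CC clone 3 it was -0.04 (adjusted p = 0.764), and without CC clone 1 it was -0.28 (adjusted p = 0.00544), the lowest over alternatives that reached 0.905.

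The ratio of DGAT1 to DGAT2 measures how the pair shifted within each culture, and any common scaling of a library cancels in it. In control it was 2.03, 1.04 and 2.97 in GG clones 1, 2 and 6, 1.72, 1.95 and 0.781 in GC clones 2, 3 and 4 and 2.43 and 2.12 in CC clones 1 and 3, as units over units without correction for length. With palmitic acid it was 1.44, 0.689 and 1.75 in GG, 1.12, 1.01 and 0.587 in GC and 1.86 and 1.46 in CC. The ratio was lower in 8 of 8 clones, with changes from -0.38 to -0.94 on the log2 scale. The mean change was -0.59 (SD 0.185, n = 8 clones), a ratio of 0.664. An exact two-sided permutation test that flips the sign of each clone's change gave p = 0.00781, the smallest p that 8 clones can give, and 0.0117 after Benjamini-Hochberg adjustment over the 3 ratios tested. DGAT1 itself was lower in 8 of 8 clones and enters this ratio, so the test is no separate support for its fall. How many other gene pairs moved 1 way in 8 of 8 clones was not computed. CC clone 3, with the largest fall of DGAT1, had a ratio change of -0.54, inside the range of the other clones.

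For LPIN1 to LPIN2 the mean log2 change of the ratio was 0.01 (SD 0.443), lower in 6 of 8 clones and higher in 2, with an exact permutation p = 0.984. The change in CC clone 3 was 1.05, and without that clone the mean was -0.13 (exact permutation p = 0.0469, adjusted 0.0469). For AGPAT2 to AGPAT3 the mean change was 0.63 (SD 0.470, higher in 8 of 8 clones, exact permutation p = 0.00781, adjusted 0.0117), but AGPAT2 contributed 1 to 67 reads per library. The rise of AGPAT2 is tied to the filter on low values, so this ratio counts as no support.

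**Figure D2:**
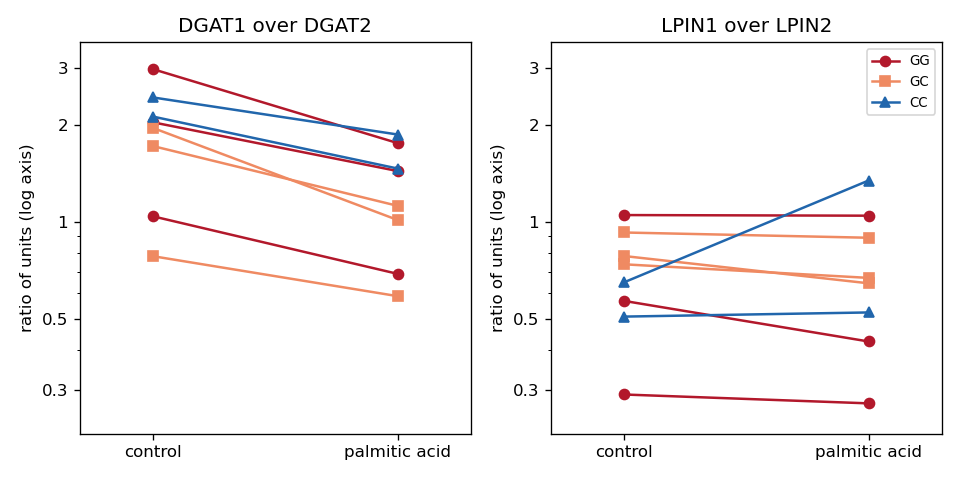
Ratio of DGAT1 to DGAT2 units (left) and of LPIN1 to LPIN2 units (right) on log axes, in control and palmitic acid libraries joined by clone (GG circles, GC squares, CC triangles). The DGAT ratio slopes down in all 8 clones, and the LPIN ratio is lower in 6 clones, most in GG clone 1 (0.568 to 0.425), and goes from 0.648 to 1.34 in CC clone 3.

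CES1 (ENSG00000198848.12, chromosome 16, 55802851 to 55833337, minus strand) encodes a carboxylesterase of the hepatocyte endoplasmic reticulum that cleaves triglyceride, cholesteryl ester and many drugs. It varied more between control clones than any other gene of the set. In control it stood at 30.6, 1.82 and 79.9 units in GG clones 1, 2 and 6, at 20.5, 29.5 and 75.2 in GC clones 2, 3 and 4 and at 103 and 21.9 in CC clones 1 and 3, a 56.4-fold span. With palmitic acid it stood at 21.2, 1.41 and 47.4 units in GG, 15.4, 16.5 and 53.6 in GC and 56.8 and 12.2 in CC. High and low clones occurred in each genotype, and all of them fell, with changes from -22.5% in GG clone 2, the clone with the lowest level, to -44.7% in CC clone 1. In GG clone 2 the change rests on 23 reads in control and 19 with palmitic acid, too few to tell a fall from counting error. The mean log2 change was -0.64 ± 0.07 (SE, n = 8 clones, 95% interval -0.80 to -0.48, adjusted p = 4.26e-04), a ratio of 0.641, and -0.65 without CC clone 3 (adjusted p = 0.00113). Without the block, where the span between clones counts as error, the adjusted p was 0.883, and the lowest over the alternatives was 5.65e-10. CES1 has a close pseudogene copy, CES1P1, and how reads were divided between them is uncertain.

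LIPA (ENSG00000107798.17, chromosome 10, 89213569 to 89414557, minus strand) encodes lysosomal acid lipase, which hydrolyses triglyceride and cholesteryl ester delivered to the lysosome. It ran from 117 to 228 units in control and from 106 to 272 with palmitic acid, higher in 6 of 8 clones. The exceptions were GC clone 3 (-0.41 on the log2 scale) and CC clone 3 (-0.14). The mean log2 change was 0.09 ± 0.07 (95% interval -0.06 to 0.25, adjusted p = 0.3803). The annotated span of LIPA holds 4 interferon-induced genes on the opposite strand, IFIT1, IFIT2, IFIT3 and IFIT1B. IFIT1 stood at 3.04 to 27.8 units, well below LIPA, and its log2 change was -0.86 (adjusted p = 0.00197). IFIT2 had a log2 change of 0.05 (adjusted p = 0.839) and IFIT3 of -0.06 (adjusted p = 0.792), and IFIT1B, at 0 to 0.484 units, was not tested.

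Taken by genotype, the same 3 genes had the lowest log2 changes in each. In CC all 3 fell by limma's test: DGAT1 by 1.00 ± 0.17 on the log2 scale (adjusted p = 0.0184), CES1 by 0.84 ± 0.14 (adjusted p = 0.0197) and GPAM by 0.67 ± 0.15 (adjusted p = 0.0441). Of all tested genes 2.3% passed in CC, 1.45% downward and 0.848% upward. In GC, where 1.54% of genes passed, 0.664% downward and 0.878% upward, DGAT1 (-0.62 ± 0.14, adjusted p = 0.0492) and CES1 (-0.57 ± 0.12, adjusted p = 0.0400) fell, and GPAM was at -0.33 ± 0.12 (adjusted p = 0.189). In GG, where 0.84% of genes passed, 0.267% downward and 0.573% upward, none of the 9 did: CES1 was at -0.52 ± 0.12 (adjusted p = 0.0758), DGAT1 at -0.58 ± 0.14 (0.0798) and GPAM at -0.40 ± 0.12 (0.151). DESeq2 on recovered reads called all 3 in GG (DGAT1 0.00777, CES1 0.0208 and GPAM 0.0496), and edgeR called CES1 (0.0392). Each of the limma calls in CC and GC was lost without the block (adjusted p of at least 0.999). Without CC clone 3 the calls in CC were lost, with DGAT1 at -0.56 (adjusted p = 0.235), CES1 at -0.85 (0.191) and GPAM at -0.42 (0.690). That of GPAM was also lost without GG clone 1 or any 1 GC clone (adjusted p from 0.0686 to 0.0775), with edgeR (0.0508) and with library totals in place of TMM (0.0610). In GC the call of DGAT1 was lost on leaving out any 1 GG or GC clone (adjusted p from 0.0658 to 0.397), with a pseudocount of 0.1 (0.0534), with no filter on low values (0.0512) and with library totals in place of TMM (0.0667). CES1 in GC lost its call without GG clone 1 (0.0639) or GC clone 2, 3 or 4 (0.0817, 0.398 and 0.195). In GG, leaving out CC clone 1 or CC clone 3 brought in DGAT1 (0.00506 and 0.00446) and CES1 (0.0420 and 0.0357).

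The difference in response between genotypes was tested directly, and none of the 9 genes passed. GG minus GC ran from -0.07 for GPAM to 0.32 for LIPA on the log2 scale (lowest adjusted p = 0.999), with 0% of all genes passing. GG minus CC ran from -0.42 for LPIN1 to 0.57 for DGAT2 (lowest adjusted p = 0.797), with 0.00764% passing, and GC minus CC from -0.38 for LPIN1 to 0.57 for DGAT2 (lowest adjusted p = 0.911), also with 0.00764% passing. The comparisons share clones and are not independent. At an unadjusted limma p under 0.05 there were 0, 1 and 2 of the 9 genes and 229, 768 and 613 of all genes, in the same order. DGAT2 had the largest difference, with a log2 response of 0.03 in GG, 0.03 in GC and -0.54 ± 0.15 in CC (adjusted p = 0.0800), where CC clone 1 changed by -0.17 and CC clone 3 by -0.90. LPIN1, at the other end of both comparisons with CC, changed by -0.06 in CC clone 1 and 0.84 in CC clone 3. Both comparisons with CC thus rest on 2 clones that disagreed for these genes. The differences are not given here with 1 clone left out. The 95% interval of GG minus CC was -0.06 to 0.89 for DGAT1, -0.15 to 0.68 for GPAM and -0.09 to 0.73 for CES1.

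Levels were compared between genotypes within the 8 control and the 8 palmitic acid libraries, and none of the 9 genes passed in any of 6 comparisons (lowest adjusted p = 0.753), where 0 or 0.00764% of all genes did. In control, GG minus GC ran from -1.46 for AGPAT2 to 0.37 for LPIN2 on the log2 scale, GG minus CC from -1.42 for CES1 to 0.13 for LPIN2 and GC minus CC from -0.53 for DGAT1 to 0.75 for AGPAT2. With palmitic acid, GG minus GC ran from -1.21 for AGPAT2 to 0.34 for LPIN2, GG minus CC from -1.10 for CES1 to 0.43 for DGAT2, and GC minus CC from -0.15 for DGAT1 to 0.76 for DGAT2. At an unadjusted limma p under 0.05 the control comparisons held 2, 0 and 0 of the 9 genes and 738, 150 and 317 of all genes, and the palmitic acid comparisons 0, 0 and 1 of the 9 and 584, 160 and 811 of all.

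The AGPAT pair was lower in GG than in GC control clones without overlap, for 2 of the 9 genes against 12.3% of all genes. AGPAT3 stood at 104 to 120.5 units in the GG and 139 to 142 in the GC control clones, a log2 difference of -0.35 ± 0.13 (adjusted p = 0.810), and at 114 and 122 in CC. AGPAT2 stood at 0.0792 to 0.217 units in GG, 1.05 to 1.69 in GC and 0.253 and 0.957 in CC, on the few reads given above. Its mean over all 16 libraries, 1.03 units, barely met the filter of 1 unit. The group means were 1.29 (control) and 2.31 (palmitic acid) in GC, 0.145 and 0.624 in GG and 0.605 and 1.06 in CC. AGPAT2 met the filter through the GC clones and through the palmitic acid libraries. Its separation of GC from GG or CC is therefore tied to the filter, as is its rise, and neither counts as support. The GG and CC control clones did not overlap for 1 of the 9 genes, AGPAT2, against 9.35% of all genes. That rests on 3 reads in GG clone 6 against 4 in CC clone 1 and counts as no support either. The GC and CC control clones did not overlap for 3 of 9, against 23.2% of all genes: AGPAT2 and AGPAT3 were higher and LPIN2 lower in GC. With palmitic acid no gene of the set separated GG from GC, against 11.9% of all genes, or GG from CC, against 11.6%. GPAM and AGPAT3 were higher in GC than in CC without overlap there, 2 of 9 genes against 25.5% of all. The mean of GPAM was 694 units in the GC clones (SD 235, n = 3), and in the CC clones it was 408 (SD 114, n = 2), a log2 difference of 0.74 ± 0.31 (adjusted p = 0.753).

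The genes whose log2 level followed each of the 9 most closely over the 16 libraries were sought among 10337 genes with a mean of at least 5 units. The points include 2 libraries of each clone, so the coefficients describe differences between clones as much as treatment. GPAM was closest to PRKCA (Pearson r = 0.956), a protein kinase C gene, and HLF (0.944), a transcription factor of the PAR bZIP family. DGAT2 was closest to SARDH (0.968), the sarcosine dehydrogenase gene, and ABCB6 (0.961), and CES1 to PDZD8 (0.951) and PPP2R2D (0.931). LPIN1 was closest to PAQR5 (0.929) and EPB41 (0.928), DGAT1 to MAMDC4 (0.914) and ZFP1 (0.893), and LIPA to TMED2 (0.899) and ARL15 (0.899). Lower values were the highest found for AGPAT3 (DOPEY1, 0.888, and SMARCD2, 0.820), AGPAT2 (DDR1, 0.872, and QPCT, 0.857) and LPIN2 (PNPLA6, 0.853, and FAM212B, 0.850). None of the 9 genes was among the 2 closest to another.

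The other genes of the pathway were taken from 4 lists, also chosen with earlier results of these data known. Of 17 tested genes listed under triglyceride synthesis, 3 rose and 1 fell (median log2 change -0.01, as over all tested genes). The list includes the diacylglycerol kinases DGKA, DGKD and DGKZ, which use diacylglycerol but do not turn it into triglyceride. Over all tested genes 9.33% rose and 9.52% fell, 18.9% together. AGPAT5, a mitochondrial lysophosphatidic acid acyltransferase, rose in 8 of 8 clones by 0.24 ± 0.05 (adjusted p = 0.00658). GPAT3, the acyltransferase of the endoplasmic reticulum that shares the step of GPAM, rose by 0.71 ± 0.21 (adjusted p = 0.0346), higher in 6 of 8 clones, and the monoacylglycerol acyltransferase MOGAT3 rose by 0.38 ± 0.11 (0.0370). The 1 gene that fell was the kinase DGKD, by 0.23 ± 0.06 on the log2 scale (0.0245). Of 10 genes of the branch to phospholipids, 1 rose and 1 fell (median 0.02), against the same shares of all genes: PCYT1A, the rate-limiting enzyme of phosphatidylcholine synthesis, rose by 0.27 ± 0.08 (0.0448), and PCYT2, its counterpart for phosphatidylethanolamine, fell by 0.26 ± 0.06 (0.0106).

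Of 13 tested genes of hydrolysis, 2 rose and 3 fell (median -0.06), against 9.33% and 9.52% of all tested genes. DAGLA, a diacylglycerol lipase, rose in 8 of 8 clones by 0.55 ± 0.09 (adjusted p = 0.00261), and ABHD6, a monoacylglycerol lipase, rose by 0.26 ± 0.08 (0.0443). CES3, a carboxylesterase related to CES1, fell in 8 of 8 clones by 0.36 ± 0.08 (0.0118), the hepatic lipase LIPC fell by 0.38 ± 0.10 (0.0195), and ABHD12, a lysophospholipid and monoacylglycerol lipase, fell by 0.31 ± 0.10 (0.0458). PNPLA2, the adipose triglyceride lipase that opens droplet lipolysis, had a log2 change of -0.08 ± 0.07 (adjusted p = 0.422), and its co-activator ABHD5 0.49 ± 0.16 (0.0568). ABHD5 was at 0.20 (adjusted p = 0.329) without CC clone 3, at 0.77 (6.58e-04) without CC clone 1 and at 0.56 (0.0476) without GG clone 2, and its adjusted p ran from 6.58e-04 to 0.781 over the alternatives. The PNPLA2 inhibitor G0S2, with a mean of 0.288 units, was not tested.

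Of 14 regulators of the pathway, 2 rose and 6 fell (median -0.10), against 9.33% and 9.52% of all tested genes. CREB3L3, a fasting-responsive factor of liver, rose in 8 of 8 clones by 0.95 ± 0.15 (adjusted p = 0.00203), and SREBF1, a regulator of fatty acid synthesis, rose by 0.40 ± 0.12 (0.0375). Falls in 8 of 8 clones were seen for the bile acid receptor NR1H4 (-0.72 ± 0.13, 0.00433), the lysosomal gene regulator TFEB (-0.69 ± 0.09, 6.40e-04) and the carbohydrate-responsive MLXIPL (-0.52 ± 0.11, 0.00956). In 7 of 8 clones the fatty acid receptor PPARA (-0.37 ± 0.09, 0.0174), the oxysterol receptor NR1H3 (-0.28 ± 0.08, 0.0297) and the hepatocyte factor HNF4A (-0.27 ± 0.08, 0.0289) fell. The lipin phosphatase subunits CTDNEP1 and CNEP1R1 were at 0.06 ± 0.05 (0.458) and 0.07 ± 0.07 (0.525).

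All 19 calls on these other genes were lost without the block (adjusted p from 0.161 to 0.933). AGPAT5, DAGLA, CREB3L3, NR1H4, TFEB and MLXIPL kept theirs when any 1 clone was left out, though without CC clone 3 MLXIPL moved to -0.30 (adjusted p = 0.0328). The other 13 lost it in at least 1 such fit, with no change of sign. Without CC clone 3, 12 lost it: GPAT3 (0.41), DGKD (-0.17), PCYT1A (0.14), PCYT2 (-0.19), ABHD6 (0.27), ABHD12 (-0.20), CES3 (-0.28), LIPC (-0.37), SREBF1 (0.22), PPARA (-0.22), NR1H3 (-0.24) and HNF4A (-0.15). Omitting a GC clone ended 6 calls for clone 2, 10 for clone 3 and 9 for clone 4, and omitting a GG clone ended 7 for clone 1, 5 for clone 2 and 8 for clone 6. Omitting CC clone 1 ended 2, that of ABHD6 and that of MOGAT3, then at 0.29 (adjusted p = 0.106). With DESeq2 on recovered reads ABHD6 (adjusted p = 0.127), MOGAT3 (0.0765), NR1H3 (0.0720), LIPC (0.0716) and PCYT1A (0.0619) lost their calls, and with edgeR ABHD12 did (0.0524). Library totals in place of TMM ended those of ABHD6 (0.0652), MOGAT3 (0.0550) and ABHD12 (0.0550), no filter on low values those of ABHD6 (0.0592) and PCYT1A (0.0505), and equal weight of clones that of PCYT1A (0.0505).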

How the data were processed

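Total RNA was extracted with TRIzol and a column, depleted of ribosomal RNA and made into directional MGIEasy libraries, per the labels' protocols. Trimmomatic 0.38, RSEM 1.3.0, Bowtie2, edgeR and build hg38 are named in the submitters' processing notes. What annotation, strand setting and gene filter were used is not given in the sources used here. Deposited values are a normalized signal for 16558 genes, which the authors made as counts relative to library size (CPM) with TMM scaling. This was tested on the values: 100% were whole reads at a tolerance of 0.01 reads. Labels of single libraries run from 48 to 55 h, and these hours were not used.

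Values were analysed as log2(units + 0.5), for 13095 genes whose mean reached 1 unit, by limma 3.58.1 in R 4.3.3 with a mean-variance trend, two-sided, Benjamini-Hochberg adjusted over all tested genes at 0.05. The palmitic acid fits held each clone as a block, with 1 term per genotype, and genotypes were compared within the 8 control or the 8 treated libraries. A clone's 2 libraries are the same cell line, which is where the pairing comes from. Their deviations from group means correlated at 0.523 to 0.857, and in 8 of 8 clones the partner was the closest library. Centring on group means lowers the correlation with other clones of the same genotype, which favours that outcome. In CC, with 2 clones, it makes both mirror images with the same value (0.744), so they count once. No replicates were copies (lowest chi-square per degree of freedom 25.3). With 1 culture per clone and treatment, p-values measure the spread between clones. Reads per library limit precision through counting error, which matters most for AGPAT2 and for CES1 in GG clone 2. Alternatives included edgeR 4.0.16 and DESeq2 1.42.0 on recovered reads. The fits were also run on simulated data, and the outcome of that run is not given here. All 9 analysed genes and the 2 closest genes of each are named, as are pathway genes past the threshold, with PNPLA2, ABHD5 and G0S2 in any case. The members and lists were chosen with earlier results of these data known.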

Additional observations from a re-analysis of the deposited data

Results flagged for a closer look

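For each of the 9 genes the 8 log2 changes with palmitic acid were examined for a clone lying far from the others, by the gap to its nearest neighbour as a share of the whole range against Dixon's 95% limit. By the limit itself chance flags about 1 in 20 such groups. The share flagged over all tested genes was not computed. In 3 of the 9 genes a clone exceeded it, and it was CC clone 3 each time. LPIN1 changed by 0.84 in that clone (gap 0.666 of the range), DGAT1 by -1.44 (0.680) and DGAT2 by -0.90 (0.666). The palmitic acid library of CC clone 3 held the fewest reads (9314342). The log2 changes of that clone had an SD of 0.567 over all tested genes, against 0.311 to 0.404 in the other clones. These flags are therefore not read as particular to the 3 genes. The part of depth in these values was not tested.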

How the results depend on the processing

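The falls of GPAM, DGAT1 and CES1 over genotypes kept direction and call in 15 of 16 alternatives each, the exception being the fit without the replicate block. Without that block 6 genes passed over genotypes in place of 2469, 0 in GG, 0 in GC and 1 in CC. Over the fits that leave out a clone, LPIN1 ran from -0.031 (CC clone 3) to 0.27 (CC clone 1), and the ratio of LPIN1 to LPIN2 from -0.13 (CC clone 3) to 0.074 (GG clone 1); the cause was not tested. With DESeq2 on recovered reads 252 genes passed in GG in place of 110, 383 in GC in place of 202 and 499 in CC in place of 301, and library totals without TMM gave 199 in CC. DESeq2 gave 2 for the response difference GC minus CC, 19, 1 and 3 for GG minus GC, GG minus CC and GC minus CC in control, and 10, 2 and 15 with palmitic acid. Where the main count was 1 (both response differences with CC and both treated comparisons with CC), pseudocount 0.1 and edgeR gave 0. With no filter on low values the response differences gave 6 and 6, and the treated comparisons 8 and 9. Leaving out each clone in turn gave 1254 to 3753 over genotypes (CC clone 3 gave 1254, GC clone 3 1448, GG clone 1 1538 and CC clone 1 3753). It gave 0 to 472 in GG, 2 to 765 in GC and 13 to 2082 in CC. It gave 0 to 486 for the response difference GG minus CC and 0 to 373 for GC minus CC. It gave 0 to 1 for control GG minus CC and GC minus CC, and 0 to 0 for the other comparisons. Where 1 CC clone is left, that clone is assumed to vary like the others. The ratio of DGAT1 to DGAT2 ranged from -0.62 to -0.54. Depth limits AGPAT2, with 1 to 67 reads, and CES1 in GG clone 2, with 23 and 19 reads.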
